A study of Mus musculus with 6 samples.

Results

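The genes described here are 37 immediate early and acute stress genes, taken by name from a table of 49585 gene rows for bone marrow monocytes with and without spleen tyrosine kinase (SYK). All 37 were found, and 36 of them were high enough to be tested, among 14023 genes tested in all. They were 10 AP-1 factors and partners (*Fos*, *Fosb*, *Fosl1*, *Fosl2*, *Jun*, *Junb*, *Jund*, *Atf3*, *Maff* and *Mafk*), 9 other early transcription factors (*Egr1*, *Egr2*, *Egr3*, *Klf6*, *Nr4a2*, *Nr4a3*, *Csrnp1*, *Srf* and *Myc*), 4 genes named for immediate early responses (*Ier2*, *Ier3*, *Ier5* and *Ier5l*), 5 genes of mRNA decay and growth restraint (*Zfp36*, *Zfp36l1*, *Zfp36l2*, *Btg1* and *Btg2*), 3 regulators of cytokine and NF-kB signalling (*Socs3*, *Nfkbiz* and *Tnfaip3*) and 6 genes of growth arrest, stress kinases and a small GTPase (*Gadd45a*, *Gadd45b*, *Plk2*, *Plk3*, *Sgk1* and *Rhob*). RNA-seq had been done on 3 Syk+/+ and 3 Sykdel/del libraries, all from mice with the tamoxifen-inducible Cre Rosa26CreER(T2)+/+ and all on a high-fat diet, for 8 weeks by the submitters' text. The floxed *Syk* gene had been deleted by tamoxifen given by mouth, and since the Cre is driven from the *Rosa26* locus, the deletion was in the whole animal and not in monocytes alone. The labels do not give the age at sampling, whether the Syk+/+ mice had tamoxifen, or whether the 3 libraries of a genotype came from separate mice. The p-values therefore measure the spread between libraries, which may be technical in part.

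Immediate early genes are switched on within minutes of a stimulus by factors that are already in the cell, without new protein synthesis, and their mRNAs are short-lived. MAP kinases act on the partners of serum response factor (SRF) and, through further kinases, on CREB at the promoters, and the products are largely transcription factors such as FOS, JUN and EGR1 that drive a later wave of genes. In leukocytes the same genes also respond to adhesion, temperature change and tissue dissociation, and among the products are the proteins that end the response, such as the mRNA decay factor tristetraprolin (ZFP36) and the ubiquitin-editing enzyme A20 (TNFAIP3). SYK is a tyrosine kinase beneath immune receptors and integrins whose signals reach the MAP kinases, so the comparison asks how far this early programme differed between monocytes with and without it.

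The libraries held from 4168626 to 7071816 reads assigned to genes, with the fewest in Sykdel/del replicate 3. Levels are given as normalized counts, which are reads scaled by 1 factor per library and are not corrected for gene length. Sykdel/del replicate 1 stood apart from the other libraries of its genotype over all genes: its chi-square per degree of freedom was 10.7 against replicate 2 and 12.1 against replicate 3, while replicates 2 and 3 differed by 2.46. In Syk+/+, replicate 1 was at 7.94 and 6.21 against replicates 2 and 3, which differed by 3.85. As the gap was widest for Sykdel/del replicate 1, main results are given with and without it. Those fits keep Syk+/+ replicate 1, which was the lowest of its genotype for 21 of the 36 early genes tested. The label of monocytes was met, as the summed level of 8 monocyte markers lay between 82398 and 101675 in every library, while the B cell marker *Ms4a1* was at 0 in all 6. Most of the monocyte sum was *Lyz2*, at 53258 to 71325. Plasma cell transcripts were present. Markers of B and plasma cells, 8 in all, summed to 1581 to 1872 in Syk+/+ and 1946 to 2115 in Sykdel/del. Most of this sum was *Xbp1*, at 1301 to 1485 in Syk+/+ and 1396 to 1461 in Sykdel/del (log2 fold change 0.02). Of the 8 markers, 0 passed the test by limma and 3 had an unadjusted p under 0.05, all higher in Sykdel/del. The plasma cell gene *Jchain* was at 359, 217 and 184 and at 420, 460 and 579 (log2 fold change 0.99, adjusted p = 0.063), and it passed without Sykdel/del replicate 1 (1.08, adjusted p = 0.044). Markers of other cells moved with the libraries. The summed level of 10 neutrophil markers was 1866, 736 and 1013 in Syk+/+ replicates 1 to 3 and 2420, 1202 and 1114 in Sykdel/del replicates 1 to 3, with the neutrophil surface marker *Ly6g* at 0 to 4.4. By limma 0 of these 10 passed the genotype test, and 1 had an unadjusted p under 0.05. In addition, 8 erythroid markers summed to 344 to 967 in Syk+/+ and to 274, the lowest, in Sykdel/del replicate 1, and 8 mitochondrial transcripts summed to 26643 in Sykdel/del replicate 1 and to 33725 to 45570 in the others. Across the genotypes, 6 of 9 non-classical monocyte genes passed the test and were lower in Sykdel/del, with summed levels of 10428 to 13929 in Syk+/+ and 6690 to 8735 in Sykdel/del, as were 2 of 10 resident macrophage genes, with sums of 2424 to 2650 and 1764 to 2082. In such bulk RNA, fewer cells of a type and less RNA per cell cannot be told apart. Exons of 11 of the 37 genes overlap a gene on the other strand, among them *Jun* with *Junos* and *Junb* with *Prdx2*, and the strand setting of the counting is not given in the sources used here.

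Promoters, from 250 bases before to 50 bases after a RefSeq transcript start (build GRCm38.p6), were found for 30 of the 37 genes. *Egr1*, *Egr3*, *Fosl1*, *Ier2*, *Myc*, *Nfkbiz* and *Zfp36l2* had no entry. The 4 genes whose fold change was most positive once Sykdel/del replicate 1 was left out are shown with *Zfp36*, one of the most abundant members. Capitals mark, in the first 4, the core TGACG, on either strand, of the cyclic AMP response element (CRE), to which CREB and ATF family factors bind, and in *Zfp36* a CArG box (CC, then 6 A or T, then GG), the element of SRF. The *Fos* window lies at chr12:85473640-85473939 on the plus strand. The others are on the minus strand, *Fosb* at chr7:19309996-19310295, *Atf3* at chr1:191183284-191183583, *Nr4a2* at chr2:57123954-57124253 and *Zfp36* at chr7:28379179-28379478. That of *Atf3* lies within the extent GENCODE gives the gene, since other transcripts start further upstream.
Fos: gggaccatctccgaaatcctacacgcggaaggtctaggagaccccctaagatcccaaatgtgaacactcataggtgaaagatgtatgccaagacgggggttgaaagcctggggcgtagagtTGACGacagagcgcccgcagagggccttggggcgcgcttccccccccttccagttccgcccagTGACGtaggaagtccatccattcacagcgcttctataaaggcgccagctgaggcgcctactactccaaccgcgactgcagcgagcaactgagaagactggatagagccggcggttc
Fosb: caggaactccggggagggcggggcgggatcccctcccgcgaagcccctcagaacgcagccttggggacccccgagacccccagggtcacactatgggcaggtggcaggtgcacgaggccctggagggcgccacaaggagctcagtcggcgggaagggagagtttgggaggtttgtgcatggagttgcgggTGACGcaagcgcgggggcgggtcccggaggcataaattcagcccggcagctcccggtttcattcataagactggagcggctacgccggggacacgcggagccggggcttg
Atf3: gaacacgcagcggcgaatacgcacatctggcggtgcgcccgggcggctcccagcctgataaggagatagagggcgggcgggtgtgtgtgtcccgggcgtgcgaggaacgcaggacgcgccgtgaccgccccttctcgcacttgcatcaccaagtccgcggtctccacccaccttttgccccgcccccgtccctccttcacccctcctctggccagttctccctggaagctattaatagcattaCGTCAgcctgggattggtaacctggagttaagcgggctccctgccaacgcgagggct
Nr4a2: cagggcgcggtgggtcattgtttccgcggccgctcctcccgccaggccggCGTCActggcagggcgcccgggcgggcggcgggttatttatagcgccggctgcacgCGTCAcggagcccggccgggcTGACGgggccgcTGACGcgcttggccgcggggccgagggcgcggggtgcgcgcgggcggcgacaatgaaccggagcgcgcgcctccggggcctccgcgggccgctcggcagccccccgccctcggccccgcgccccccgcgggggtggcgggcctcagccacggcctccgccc
Zfp36: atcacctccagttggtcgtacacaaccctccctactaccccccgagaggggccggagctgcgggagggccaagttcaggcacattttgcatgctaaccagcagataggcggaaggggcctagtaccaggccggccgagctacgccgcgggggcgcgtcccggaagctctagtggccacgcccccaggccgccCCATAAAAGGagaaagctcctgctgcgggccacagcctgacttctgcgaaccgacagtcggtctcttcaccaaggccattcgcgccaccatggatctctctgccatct
The core TGACG, searched on both strands, was in at least 1 promoter of 17 of the 30 genes (56.7%), while 23.0% of all 27025 genes in the RefSeq table had one. It lies within the full CRE, TGACGTCA, which was in 3 members (*Btg2*, *Maff* and *Plk2*) and in 2.03% of all genes. The CArG box was in *Egr2*, *Srf* and *Zfp36* among the members and in 1.81% of all genes, and the AP-1 site TGACTCA, on both strands, in *Csrnp1* and *Tnfaip3* among the members and in 5.95% of all genes. These matches describe the letters of the windows and not binding, and a gene with several listed starts had more than 1 window in which to match.

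Over all 6 libraries, none of the 36 genes differed between the genotypes by limma at an adjusted p under 0.05, nor by limma-voom on the recovered reads, in a comparison in which 0.349% of the genes tested were lower and 0.0214% were higher in Sykdel/del. The lowest adjusted p of the set was 0.13, for *Zfp36l1*. At an unadjusted p under 0.05, 3 members were lower (*Zfp36l1*, *Socs3* and *Nfkbiz*) and 0 were higher, beside 3.32% and 1.94% of all genes. The genotypes did not overlap for 1 member, *Zfp36l1*, which was lower (5.19% of all genes), and for 0 members in the higher direction (4.94%). The median log2 fold change, Sykdel/del minus Syk+/+, was 0.03 over the members and 0.00 over all genes tested, and 16 members had a negative and 20 a positive value.

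Without Sykdel/del replicate 1 the picture changed in 1 direction. *Fos*, *Atf3*, *Klf6* and *Nr4a2* passed the test and were higher in Sykdel/del, where 0.178% of all genes were, and 0 members were lower, where 0.357% were. At an unadjusted p under 0.05 there were 12 higher (3.9% of all genes) and 1 lower (4.59%), and the groups did not overlap for 12 higher (12.4%) and 1 lower (12.1%). The median log2 fold change of the members was then 0.32, with 29 positive and 7 negative values, and stayed at 0.00 over all genes. Leaving out any other library, one at a time, gave 0 members past the threshold. With all 6 libraries kept but weighted by their fit, a setting chosen after seeing the data in which Sykdel/del replicate 1 had the lowest weight, *Atf3* (adjusted p = 0.036) and *Nr4a2* (0.043) were again higher and *Fos* (0.16) and *Klf6* (0.094) did not pass. The exclusion also narrows the spread within Sykdel/del, and the members' own levels are among those by which the library stands apart.

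**Figure D1:**
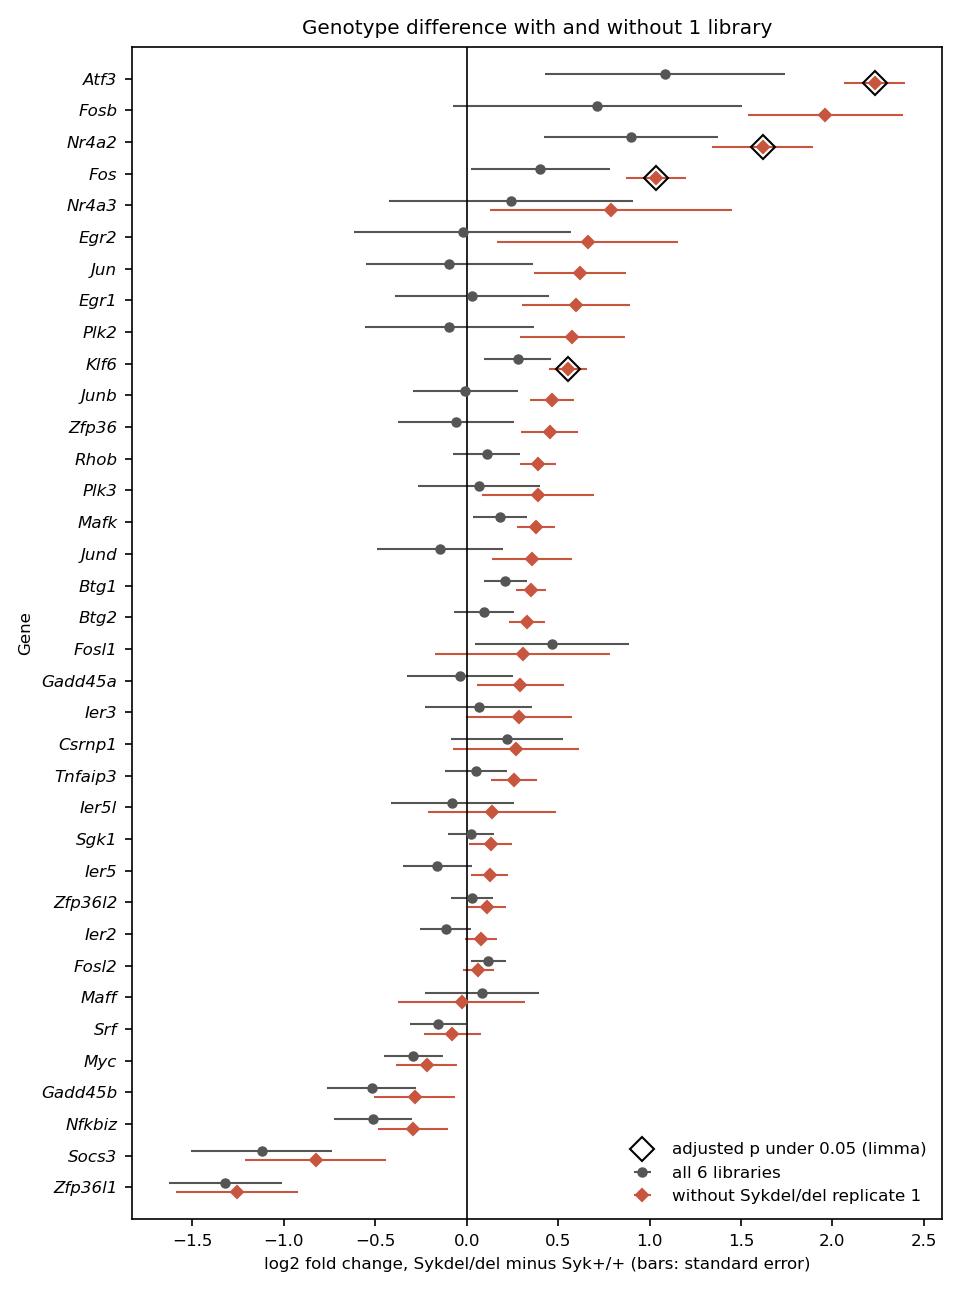
The horizontal axis gives the log2 fold change, Sykdel/del minus Syk+/+, with its standard error as a bar, for the 36 genes tested (vertical axis), from all 6 libraries (grey circles) and without Sykdel/del replicate 1 (red diamonds). Open black diamonds mark an adjusted p under 0.05 by limma, for *Atf3*, *Nr4a2*, *Fos* and *Klf6* (0.014 for *Fos*), and *Zfp36l1* and *Socs3* lie to the left of 0 in both fits.

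Libraries of 1 genotype differed widely over this set. Sykdel/del replicate 1 was the lowest of all 6 libraries for 29 of the 36 genes (80.6%, beside 21.1% of all genes tested) and the lowest of its own genotype for 32 (88.9%, beside 36.8%). Both other Sykdel/del libraries were at least 1.5 times replicate 1 for 21 members (58.3%), a gap found in 5.39% of all genes. In Syk+/+, replicate 2 was the highest of the 3 for 28 members (beside 31.3% of all genes) and replicate 1 the lowest for 21 (beside 33.7%). As a median over the members, Sykdel/del replicate 1 was 0.76 log2 units below the mean of the other libraries of its genotype (-0.76), replicates 2 and 3 were 0.42 and 0.40 above, and Syk+/+ replicates 1 to 3 were at -0.20, 0.38 and -0.08. For all genes tested each of these medians was within 0.02 of 0. The members' median SD of log2 values was 0.33 in Syk+/+ and 0.46 in Sykdel/del, against 0.17 and 0.21 over all genes. Members are not independent of each other, so these counts describe 6 libraries and not 36 separate observations.

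**Figure D2:**
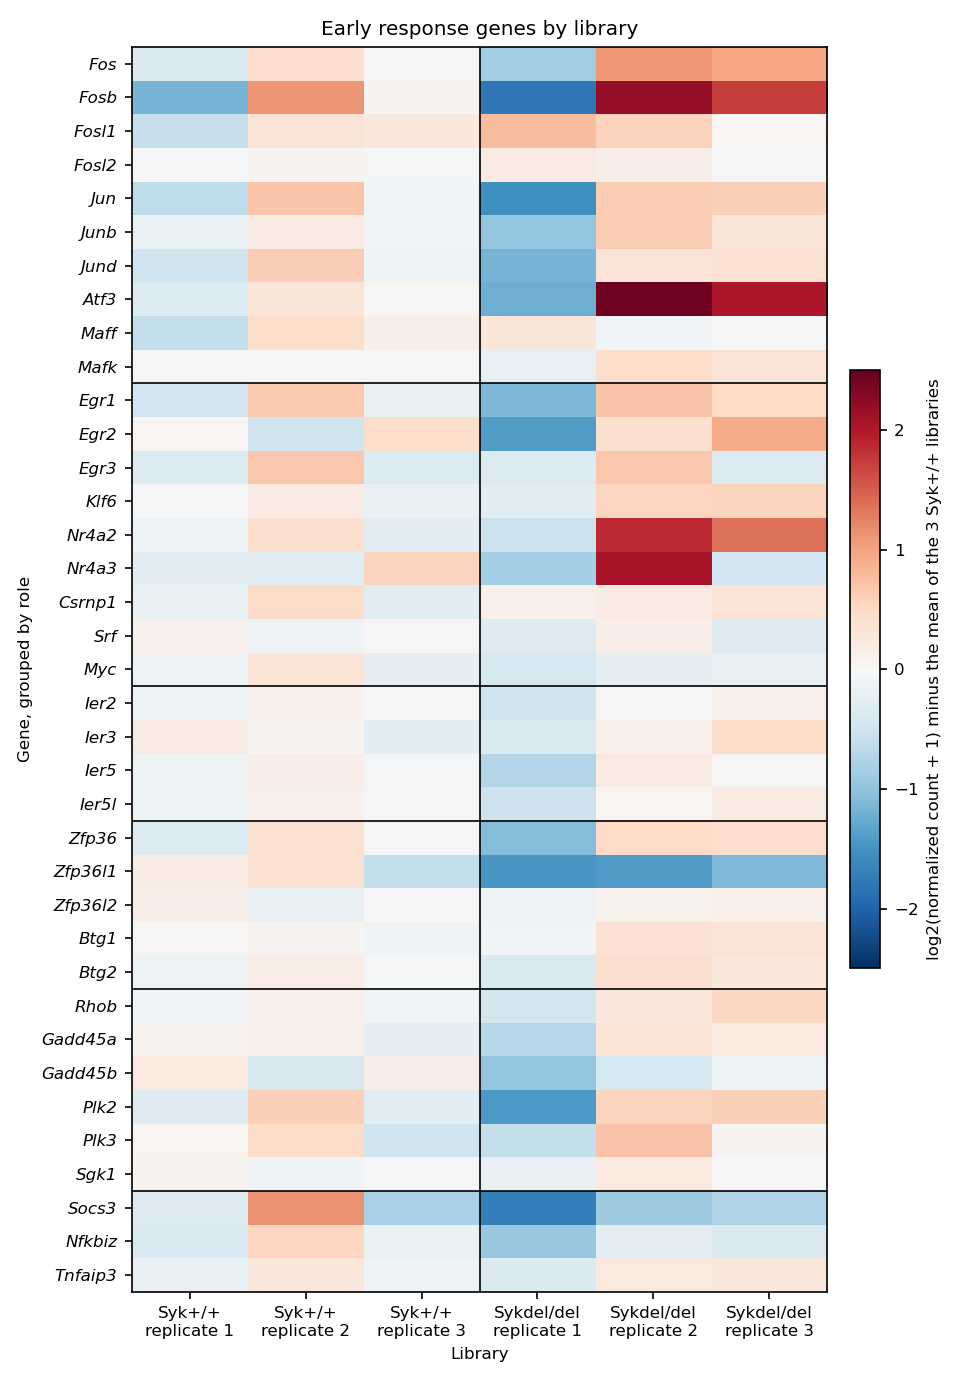
Colour gives log2(normalized count + 1) of each gene (rows, grouped by role) in each library (columns) minus the mean of the 3 Syk+/+ libraries, red above and blue below. The column of Sykdel/del replicate 1 is blue for nearly every gene that is red in Sykdel/del replicates 2 and 3, and the *Zfp36l1* row is blue in all 3 Sykdel/del libraries.

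As a sum, the 37 genes took up 31901, 41365 and 33805 normalized counts in Syk+/+ replicates 1 to 3 and 25617, 50038 and 47207 in Sykdel/del replicates 1 to 3. That is between 0.394% of all counts, in Sykdel/del replicate 1, and 0.767%, in Sykdel/del replicate 2, and the genotypes overlapped. Within Syk+/+ the sums of the neutrophil markers, at 1866, 736 and 1013 in replicates 1 to 3, ran in the opposite order to the early genes. Over all 6 libraries the neutrophil sum was highest in Sykdel/del replicate 1 and Syk+/+ replicate 1, where the early genes were lowest. In Sykdel/del replicates 2 and 3, where the early genes were highest, the neutrophil sums were 1202 and 1114. Those of Syk+/+ replicates 2 and 3 were lower, at 736 and 1013. *Mmp8* was the largest part of each sum, at 840, 498 and 549 in Syk+/+ and 1041, 725 and 738 in Sykdel/del. As a median over the 10 neutrophil markers, Syk+/+ replicates 1 to 3 were 1.61, -1.53 and 0.00 log2 units from the other libraries of the genotype. Sykdel/del replicates 1 to 3 were at 1.16, -0.30 and -0.95. The part of these neutrophil transcripts, and of the lower mitochondrial and erythroid sums of Sykdel/del replicate 1, in the early gene levels was not tested.

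**Figure D3:**
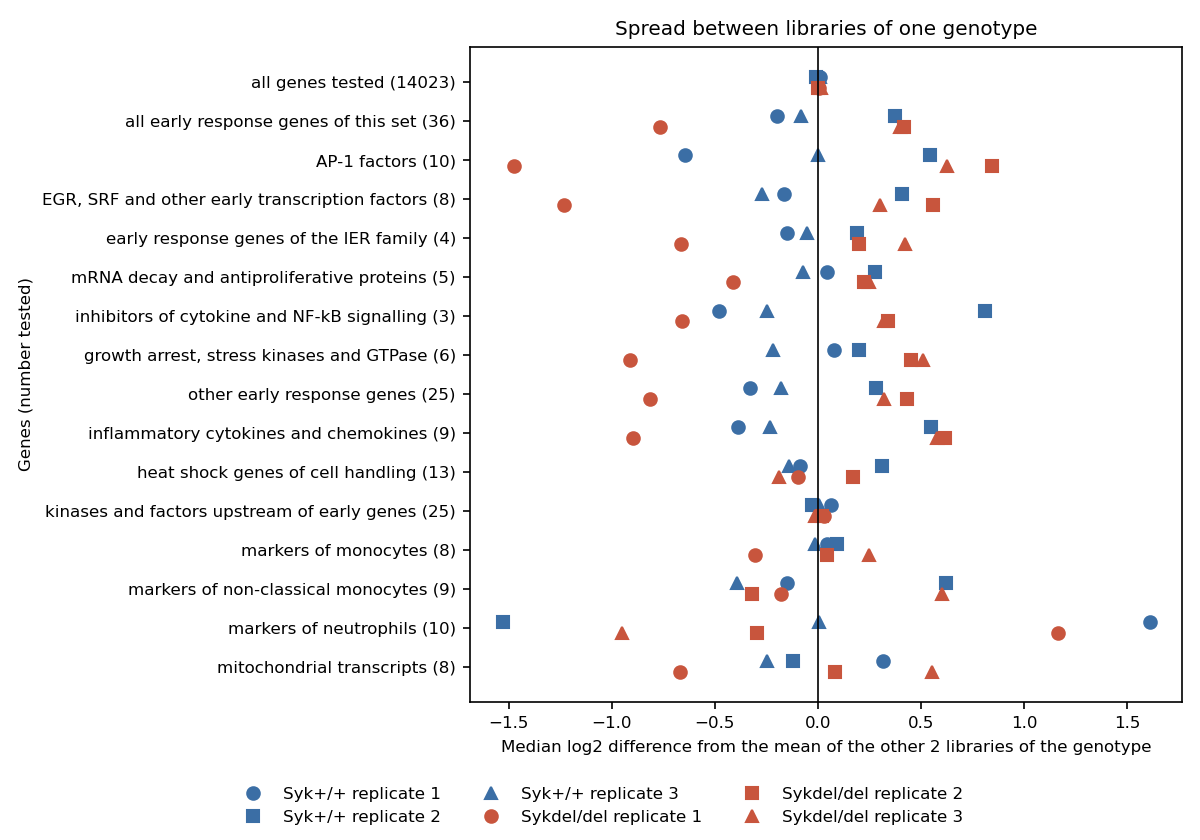
The horizontal axis gives the median log2 difference of each library from the mean of the other 2 libraries of its genotype, for lists of genes (vertical axis, number tested in brackets), with Syk+/+ in blue, Sykdel/del in red and a marker for each replicate. Sykdel/del replicate 1 lies at -0.76 over the early response genes and at -1.47 over the AP-1 factors, while all 6 libraries lie near 0 for all genes tested and for the upstream kinases and factors.

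The AP-1 factors, which pair as leucine zipper dimers on promoters, had the widest spread of the 6 roles within Sykdel/del, with a median SD of log2 values of 0.86. In Syk+/+ it was 0.44, below the 0.48 of the regulators of cytokine and NF-kB signalling. *Fos*, the inducible partner of JUN, had 3518, 6036 and 4408 normalized counts in Syk+/+ replicates 1 to 3 and 2497, 9575 and 9052 in those of Sykdel/del, the order in which all values below are given. It was the most abundant member, also per kilobase of exon (2486 normalized counts). The values of Sykdel/del replicates 2 and 3 were above, and that of replicate 1 below, every Syk+/+ value, so the genotype means of 4654 ± 1277 and 7041 ± 3944 (SD, n = 3) did not differ by limma (log2 fold change 0.40, SE 0.38, adjusted p = 1.00). Without Sykdel/del replicate 1 the log2 fold change was 1.04 (SE 0.16, adjusted p = 0.014), and the remaining Sykdel/del mean was 2.00 times that of Syk+/+. Without Sykdel/del replicate 2 or 3 instead, the log2 fold change was 0.07 or 0.11.

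*Fosb*, a close relative of *Fos*, was at 223, 1075 and 528 in Syk+/+ and 145, 2313 and 1656 in Sykdel/del. None of the 36 genes tested varied more within a genotype: replicate 2 was 15.9 times and replicate 3 was 11.4 times replicate 1 in Sykdel/del, and Syk+/+ replicate 2 was 4.83 times replicate 1. Its log2 fold change was 0.71 (SE 0.79) over all libraries and 1.96 (SE 0.42, adjusted p = 0.072) without Sykdel/del replicate 1, which did not pass the threshold. *Atf3*, a stress-induced repressor of the ATF family, was at 143, 224 and 186 in Syk+/+ and 77.6, 987 and 738 in Sykdel/del. Sykdel/del replicate 1 was again below and replicates 2 and 3 far above all Syk+/+ libraries. The log2 fold change of *Atf3* was 1.08 (SE 0.66, adjusted p = 1.00) with all libraries and 2.23 (SE 0.17, adjusted p = 4.41e-05) without that library, the largest fold change and the lowest adjusted p of the set. It was 0.40 without Sykdel/del replicate 2 and 0.61 without replicate 3.

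The JUN proteins are the obligate partners of FOS. *Jun* was at 1199, 2998 and 1776 in Syk+/+ and 644, 2883 and 2819 in Sykdel/del, and *Junb*, which often acts against JUN, at 1544, 2016 and 1643 and at 887, 2677 and 2113. For both, Syk+/+ replicate 2 and Sykdel/del replicates 2 and 3 were the 3 highest libraries. *Junb* left the overlap without Sykdel/del replicate 1 (log2 fold change 0.47, SE 0.12, adjusted p = 0.17), and *Jun*, whose highest value was in Syk+/+, did not (0.62, SE 0.25, adjusted p = 0.52). *Jund*, the least inducible JUN gene, ranged from 342 to 737 in Syk+/+ and from 215 to 631 in Sykdel/del, with the same library lowest.

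**Figure D4:**
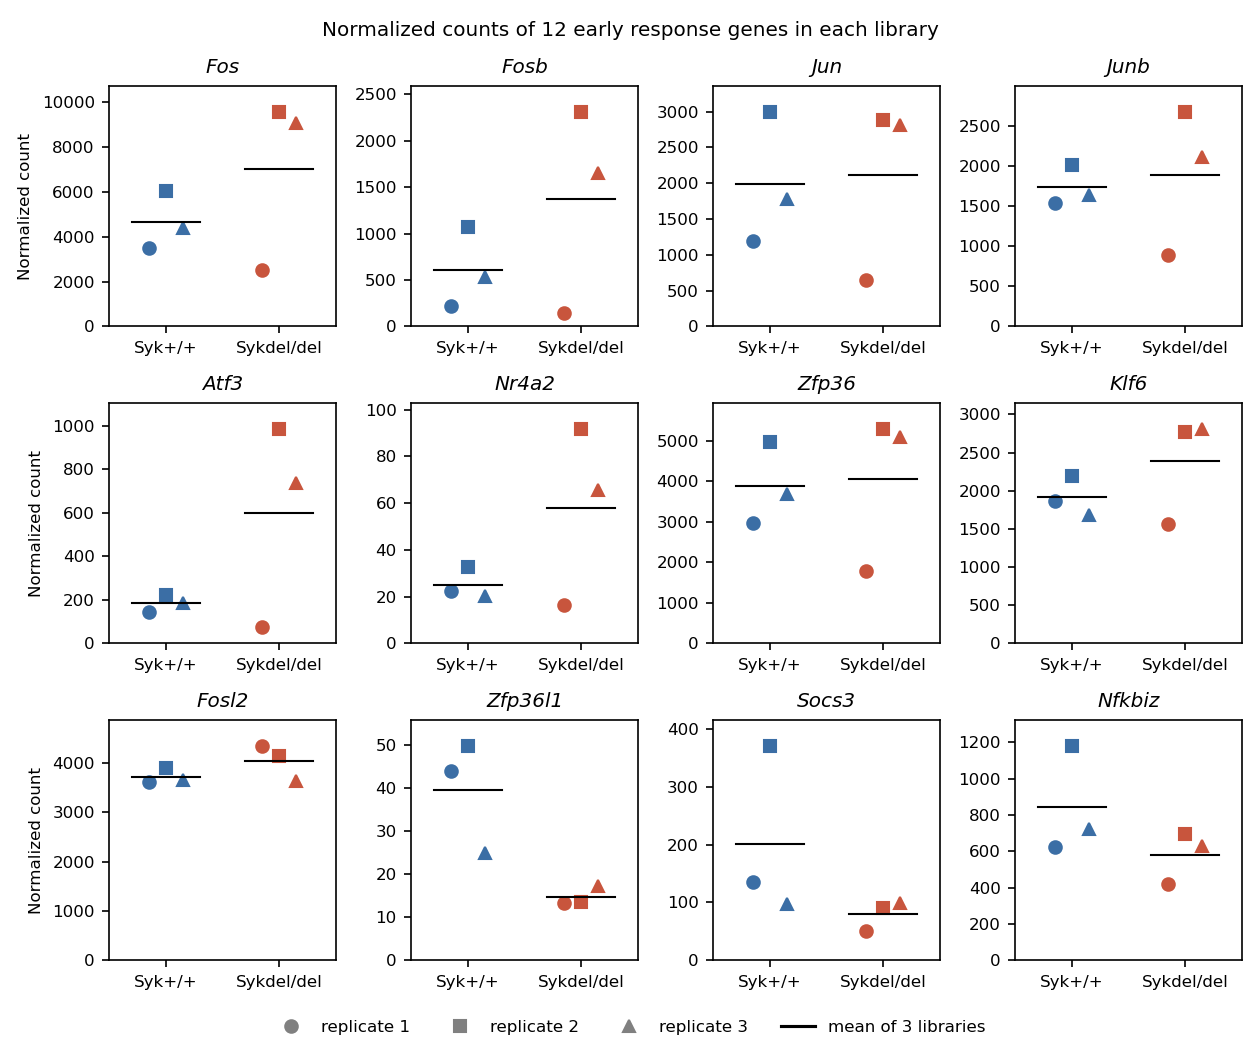
Each panel plots the normalized count (vertical axis, from 0) of 1 gene in the 6 libraries, with Syk+/+ in blue and Sykdel/del in red, a marker for each replicate and a black line at the mean of 3 libraries. For *Fos*, *Fosb*, *Atf3*, *Nr4a2*, *Junb*, *Zfp36* and *Klf6*, Sykdel/del replicates 2 and 3 lie above and replicate 1 lies below all Syk+/+ libraries, while *Fosl2* is level and *Zfp36l1* is lower in all 3 Sykdel/del libraries.

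Not every AP-1 gene shared this order. *Fosl2*, a FOS relative of later and longer responses, was at 3615, 3899 and 3648 in Syk+/+ and 4350, 4149 and 3638 in Sykdel/del, with its highest value in the very library where *Fos* was lowest. The genotype means of *Fosl2* were 3721 ± 156 and 4045 ± 367 (SD, n = 3, log2 fold change 0.12, SE 0.10, adjusted p = 1.00). *Fosl1*, a FOS relative at 3.7 to 11.1 over all libraries, and *Maff*, a small MAF protein at no more than 31.7, were also highest of their genotype in Sykdel/del replicate 1, at 11.1 and 28.8. *Mafk*, another small MAF protein, was at 235 to 245 in Syk+/+, at 207 in Sykdel/del replicate 1 and at 326 and 300 in replicates 2 and 3 (log2 fold change 0.38, SE 0.10, adjusted p = 0.21 without that replicate).

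Among the other transcription factors, *Klf6*, a zinc finger factor of myeloid activation, was the most abundant, at 1870, 2192 and 1677 in Syk+/+ and 1571, 2772 and 2812 in Sykdel/del. Its log2 fold change was 0.28 (SE 0.18, adjusted p = 1.00), and 0.55 (SE 0.10, adjusted p = 0.030) without Sykdel/del replicate 1. It was 0.14 without Sykdel/del replicate 2 and 0.13 without replicate 3. *Nr4a2*, an orphan nuclear receptor, was at 22.4, 32.6 and 20.3 in Syk+/+ and 16.6, 91.8 and 65.5 in Sykdel/del. Here too 1 Sykdel/del library was below and 2 were above all Syk+/+ values, and the log2 fold change went from 0.90 (SE 0.47, adjusted p = 0.99) to 1.62 (SE 0.28, adjusted p = 0.019) on leaving out replicate 1, and to 0.42 or 0.66 on leaving out replicate 2 or 3. Its relative *Nr4a3* was at 2.2 to 7.4 in 5 libraries and at 23.0 in Sykdel/del replicate 2 alone.

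The EGR genes, zinc finger factors downstream of ERK and SRF, were low in these cells. *Egr1* was at 29.9, 66.3 and 36.9 in Syk+/+ and 18.8, 68.9 and 59.3 in Sykdel/del, with the same 3 libraries highest as for *Jun*, and its log2 fold change was 0.03 (SE 0.42). *Egr2* ranged from 1.1 in Sykdel/del replicate 1 to 9.4 in replicate 3. *Egr3* had 1 read in Syk+/+ replicate 2, 1 read in Sykdel/del replicate 2 and 0 in the other 4 libraries, and was not tested. *Srf*, which encodes the factor itself, was at 148 to 174 and 130 to 180 in the 2 genotypes. *Csrnp1* was at 13.8 to 24.0 and 18.8 to 21.8, and *Myc*, the growth regulator, at 135 to 203 and 118 to 141. None of these had an unadjusted p under 0.05.

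The IER genes differed less. *Ier2*, a nuclear regulator of transcription, was at 1278, 1499 and 1339 in Syk+/+ and 964, 1391 and 1504 in Sykdel/del (log2 fold change -0.11, SE 0.14, adjusted p = 1.00). *Ier5*, a regulator of heat shock factor HSF1, ranged from 742 to 919 in Syk+/+ and from 490 to 948 in Sykdel/del. *Ier3*, a regulator of survival, was at 18.8 to 34.3 and *Ier5l* at 8.9 to 15.6 over all libraries. All 4 were lowest of all libraries in Sykdel/del replicate 1, and their median log2 fold change was -0.10, or 0.13 without it.

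The genes of mRNA decay and growth restraint summed to 14180 to 15499 normalized counts in Syk+/+ and 11445 to 17940 in Sykdel/del, and the AP-1 factors to 10837 to 17265 and 9063 to 23548. *Zfp36*, whose product binds AU-rich elements and destabilizes cytokine mRNAs, was at 2982, 4962 and 3691 in Syk+/+ and 1789, 5300 and 5088 in Sykdel/del, with the 6 libraries in the same order as for *Fos*. The log2 fold change of *Zfp36* was -0.06 (SE 0.32), and 0.45 (SE 0.15, adjusted p = 0.38) without Sykdel/del replicate 1. *Zfp36l2*, a family member with similar zinc fingers, was level, at 5940, 4615 and 5317 in Syk+/+ and 4807, 5587 and 5770 in Sykdel/del (log2 fold change 0.03, SE 0.11). It was second only to *Fos* in this set both as a mean count and per kilobase (1513 normalized counts per kilobase), and was lowest in Syk+/+ replicate 2, where *Fos* was highest of its genotype.

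*Zfp36l1*, the third of these decay factors, behaved apart from the rest. It was at 44.0, 49.9 and 24.9 in Syk+/+ and 13.3, 13.6 and 17.2 in Sykdel/del, so that all 3 Sykdel/del libraries were below all 3 Syk+/+ libraries. The means were 39.6 ± 13.1 and 14.7 ± 2.17 (SD, n = 3), and the log2 fold change of -1.32 (SE 0.31) had an unadjusted p of 0.00089 and an adjusted p of 0.13 by limma. Without Sykdel/del replicate 1 it was -1.26 (SE 0.33, adjusted p = 0.18). With weighted libraries it was also -1.26 and passed (adjusted p = 0.041), while over the fits that left out 1 library it ran from -1.62 to -1.13 and did not. The lower non-classical monocyte and resident macrophage genes of the same libraries move with this difference, and their part in it was not tested. Exons of *Zfp36l1* overlap those of *Gm26669* on the other strand.

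The antiproliferative genes of the BTG family, which recruit the deadenylase complex, were high and steadier. *Btg1* was at 3510, 3605 and 3220 in Syk+/+ and 3294, 4416 and 4349 in Sykdel/del (log2 fold change 0.21, SE 0.12, and 0.35, SE 0.08, adjusted p = 0.11, without Sykdel/del replicate 1). *Btg2*, a p53 target, was at 1814, 2268 and 1927 in Syk+/+ and 1541, 2624 and 2386 in Sykdel/del (0.09, SE 0.16, and 0.33, SE 0.10, adjusted p = 0.29). For both genes Sykdel/del replicates 2 and 3 were above every Syk+/+ library, and for neither did the difference pass the threshold.

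Of the regulators of cytokine and NF-kB signalling, *Socs3*, which blocks JAK signalling downstream of the IL-6 receptor, was at 136, 371 and 96.9 in Syk+/+ and 51.0, 90.8 and 99.9 in Sykdel/del. The groups overlapped, as Sykdel/del replicate 3 was above Syk+/+ replicate 3, and Syk+/+ replicate 2 was 2.73 times replicate 1. Its log2 fold change was -1.12 (SE 0.38, unadjusted p = 0.012, adjusted p = 0.60), and -0.83 (SE 0.38, adjusted p = 0.59) without Sykdel/del replicate 1. Without Syk+/+ replicate 2 it was -0.56 (adjusted p = 1.00). *Nfkbiz*, which encodes a nuclear IkB protein, was at 625, 1180 and 723 in Syk+/+ and 419, 697 and 629 in Sykdel/del. It overlapped as well, with a log2 fold change of -0.51 (SE 0.21, unadjusted p = 0.032, adjusted p = 0.84), and -0.29 (SE 0.19, adjusted p = 0.73) without that library. Without Syk+/+ replicate 2 it was -0.24. *Tnfaip3* was at 287 to 393 in Syk+/+ and 252 to 390 in Sykdel/del, with a log2 fold change of 0.05 (SE 0.17). These genes had Sykdel/del replicate 1 as the lowest and Syk+/+ replicate 2 as the highest library. Unlike for *Fos* or *Atf3*, the remaining Sykdel/del libraries were therefore not above every Syk+/+ library. For *Tnfaip3* they were at 387 and 390, above Syk+/+ replicates 1 and 3 (287 and 304).

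Among the genes of growth arrest and stress, *Rhob*, an early-response small GTPase of endosomes, was the highest, at 955 to 1102 in Syk+/+, 733 in Sykdel/del replicate 1 and 1207 and 1433 in replicates 2 and 3 (log2 fold change 0.11, SE 0.18, and 0.39, SE 0.10, adjusted p = 0.15, without replicate 1). *Plk2*, a polo-like kinase, had the same 3 libraries highest as *Jun*: it was at 29.9 to 57.6 in Syk+/+ and at 13.3 in Sykdel/del replicate 1, of which the other Sykdel/del libraries were 4.23 and 4.34 times. *Plk3*, a stress-responsive kinase of the same family, ranged from 23.3 to 58.4. The p53 and stress sensor *Gadd45a* was at 31.4 to 40.3 in Syk+/+ and at 22.2 in Sykdel/del replicate 1 against 46.9 and 43.7 in replicates 2 and 3. *Gadd45b*, its NF-kB-responsive relative, was at 60.5 to 94.4 in Syk+/+ and 39.9 to 73.3 in Sykdel/del (log2 fold change -0.52, SE 0.24, unadjusted p = 0.053). *Sgk1*, a glucocorticoid-induced kinase, was level at 216 to 238 and 200 to 270.

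The kinases and factors through which stimuli reach these promoters, among them the ERK, JNK and p38 kinases, ELK factors and CREB, did not show the spread. Of the 25 rows tested for 24 such genes, 0 passed the test by limma in either direction and 0 had an unadjusted p under 0.05, with or without Sykdel/del replicate 1. Their summed level lay between 19524 and 20104 in all 6 libraries, and their median SD of log2 values was 0.08 in Syk+/+ and 0.10 in Sykdel/del. The smallest p was that of *Elk3*, an ETS partner of SRF, at 179 to 239 in Syk+/+ and 215 to 250 in Sykdel/del (log2 fold change 0.17, SE 0.13, adjusted p = 1.00). These are transcript levels, and the phosphorylation by which the kinases act was not measured.

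A list of 27 other early response genes was spread alike within a genotype, but its median difference between genotypes was lower than that of the members. Of the 25 tested, 24 were lower in Sykdel/del replicate 1 than the mean of the other libraries of its genotype, beside 6891 of all 14023 genes, and 20 were higher in Syk+/+ replicate 2, beside 6759. Their median log2 fold change was -0.12 and, without Sykdel/del replicate 1, -0.01, where that of the members was 0.32. At an unadjusted p under 0.05 by limma, 8 were lower and 2 higher with all libraries, beside 3.32% and 1.94% of all genes. Without Sykdel/del replicate 1, 3 were lower and 7 higher, beside 4.59% and 3.9% of all genes. Of the 36 members, 12 were higher in that fit. *Dusp1*, the MAP kinase phosphatase induced with *Fos*, was at 1204, 3366 and 1771 in Syk+/+ and 575, 3336 and 3221 in Sykdel/del. In contrast, *Dusp5*, a nuclear ERK phosphatase, was at 90.7 to 116 in Syk+/+ and at 28.8, 51.1 and 39.0 in Sykdel/del, and it passed the test (log2 fold change -1.38, SE 0.22, adjusted p = 0.017, and -1.17, adjusted p = 0.018, without Sykdel/del replicate 1). It was the only one of the 25 to do so with all libraries, and all 3 Sykdel/del libraries were below all Syk+/+ libraries. *Bhlhe40*, a helix-loop-helix repressor, was at 100, 204 and 118 in Syk+/+ and 52.1, 70.9 and 65.5 in Sykdel/del (-1.09, SE 0.24, adjusted p = 0.087), and *Dusp2*, another nuclear phosphatase of the MAP kinases, at 58.9, 97.9 and 66.4 and at 17.7, 46.9 and 43.7 (-1.11, SE 0.33, adjusted p = 0.38). *Ptgs2*, the inducible cyclooxygenase, was at 1.9 to 5.5 in Syk+/+ and at 3.3, 39.6 and 29.7 in Sykdel/del, which passed the test only without replicate 1 (2.88, SE 0.46, adjusted p = 0.014).

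Heat shock genes, which respond to the handling of cells, shared part of the spread of the members. Above the mean of the other libraries of the genotype were 12 in Syk+/+ replicate 2 and 11 in Sykdel/del replicate 2. In Sykdel/del replicate 1, 9 were below it, and in replicate 3, 8 were below and 5 above. Of the 13 tested, *Hspa1a* and *Hspa1b*, which encode the inducible HSP70 and are near-identical copies between which reads may be split uncertainly, passed the test and were lower, and 0 were higher. *Hspa1b* was at 211, 435 and 313 in Syk+/+ and 68.7, 106 and 46.8 in Sykdel/del (log2 fold change -2.11, SE 0.28, adjusted p = 0.0075), and *Hspa1a* had a log2 fold change of -2.04 (SE 0.30, adjusted p = 0.011). Here all 3 Sykdel/del libraries were low, replicates 2 and 3 included, so over all 6 libraries the 2 HSP70 genes did not share the order of *Fos*. Within Syk+/+ they did, with replicate 2 highest and replicate 1 lowest. Within Sykdel/del, replicate 2 was the highest, as for *Fos*, but replicate 3 and not replicate 1 was the lowest. *Hsph1*, a co-chaperone of HSP70, was at 384, 618 and 356 in Syk+/+ and 315, 254 and 161 in Sykdel/del (-0.90, SE 0.23, adjusted p = 0.20), and passed the test without Sykdel/del replicate 1 (-1.12, adjusted p = 0.041). The other 10 heat shock genes tested did not pass in either fit.

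Among 12 inflammatory cytokines and chemokines, classical targets of the early factors, 9 were tested. *Il1b* was at 50.5, 75.9 and 52.6 in Syk+/+ and 13.3, 21.9 and 21.8 in Sykdel/del, and passed the test in both fits (log2 fold change -1.61, SE 0.27, adjusted p = 0.023, and -1.38, adjusted p = 0.030). *Ccl3*, a chemokine for leukocytes, was at 30.9, 59.5 and 31.4 in Syk+/+ and 12.2, 90.8 and 117 in Sykdel/del, with the same lowest library as *Fos*, and was higher only without Sykdel/del replicate 1 (1.39, SE 0.28, adjusted p = 0.048). *Tnf* was at 78.6 to 123 in Syk+/+ and 65.4 to 82.4 in Sykdel/del (-0.38, SE 0.19, adjusted p = 0.97).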

How the data were processed

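The authors sequenced rRNA-depleted, directional paired-end libraries of total RNA from kit-isolated monocytes and mapped them to GRCm38/mm10 with CLC Genomics Workbench. The sources used here do not give its version, the annotation or the treatment of multiply mapped reads. Values were deposited as log2(x + 1). TPM is named in the methods, but 100% of low values were whole multiples (within 0.06 read) of 1 step per library, which makes x a read number under a library-wide factor. The deposited table also holds the p-values of the authors' genotype comparison, which were not used.

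Reads per library were recovered from these steps. limma 3.58.1 (R 4.3.3, eBayes with a trend) tested genotype on the log2 values of 6 libraries, for the 14023 genes with x at or above 1 in 3 or more of them. P-values were two-sided and were adjusted for this whole number of genes (Benjamini-Hochberg, threshold 0.05). The pseudocount of 1 understates fold changes of low genes. The fit was tested on simulated data. The members and all lists were chosen with earlier results of these data known, so no list was tested as a set.

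Values in every library are given for members with an unadjusted p under 0.05, members whose genotypes do not overlap and the 10 with the highest mean. *Fosb*, *Atf3*, *Nr4a2* and *Egr1*, and *Dusp1* outside the set, were added after their values were seen. Of other lists, genes past the threshold and those with the smallest p are named. Kilobases are GENCODE M21 exon unions, and promoters are from RefSeq. The alternatives were other filters, pseudocounts and scalings, no trend, limma-voom on recovered reads, a replicate block, leaving out each library and array weights.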

Additional observations from a re-analysis of the deposited data

How the results depend on the processing

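No member passed the threshold in any of 9 planned settings that kept all libraries, while limma with array weights, a setting chosen after seeing the data in which Sykdel/del replicate 1 weighed 0.393, gave 3 members (*Zfp36l1*, *Atf3* and *Nr4a2*). Leaving out single libraries gave 0 to 4 members, the 4 without Sykdel/del replicate 1. The count over all genes was 52, 6 without the trend, 33 by limma-voom, 182 with array weights and 4 to 75 on leaving out libraries. The members' median was -0.16 (without Sykdel/del replicate 2) to 0.32 (without replicate 1), and 0.25 with array weights. Leaving out libraries turned the direction of 21 members: *Btg2* (-0.056 to 0.33), *Egr1* (-0.31 to 0.60), *Egr2* (-0.49 to 0.66), *Fosb* (-0.032 to 1.96), *Gadd45a* (-0.23 to 0.29), *Ier2* (-0.24 to 0.079), *Ier3* (-0.13 to 0.29), *Ier5* (-0.35 to 0.12), *Ier5l* (-0.23 to 0.14), *Jun* (-0.46 to 0.62), *Junb* (-0.33 to 0.47), *Jund* (-0.41 to 0.36), *Maff* (-0.21 to 0.30), *Nr4a3* (-0.67 to 0.79), *Plk2* (-0.44 to 0.58), *Plk3* (-0.25 to 0.39), *Rhob* (-0.092 to 0.39), *Sgk1* (-0.088 to 0.13), *Tnfaip3* (-0.057 to 0.26), *Zfp36* (-0.33 to 0.45), *Zfp36l2* (-0.065 to 0.12). Array weights turned 11: *Jun* (0.34), *Junb* (0.40), *Jund* (0.15), *Egr2* (0.28), *Ier5* (0.075), *Ier5l* (0.016), *Zfp36* (0.28), *Gadd45a* (0.26), *Maff* (-0.11), *Srf* (0.030), *Plk2* (0.36). A pseudocount of 5 turned *Egr2* (0.057). None of these members passed the threshold with all 6 libraries. Same-numbered libraries did not deviate together (correlations 0.019, 0.041 and -0.027), and with the replicate block 53 genes and 0 members passed. With 3 libraries a genotype, standard errors of the members' log2 fold changes ran from 0.10 to 0.79, and at means under 10 normalized counts (*Egr2*, *Fosl1*, *Nr4a3*) counting error adds to the spread.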

Other observations

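Of the 25 genes higher in Sykdel/del once Sykdel/del replicate 1 was left out, 4 were members of the set, 9 were immunoglobulin variable or constant region genes and 12 were others, among them *Ptgs2* and *Ccl3*, described above, and the immunoglobulin J chain gene *Jchain*. Several of the 12, named after their values were seen, had Sykdel/del replicate 1 as the lowest of all libraries and replicates 2 and 3 as the highest, as *Fos* had. *Plaur*, the urokinase receptor of migrating leukocytes, was at 568, 530 and 604 in Syk+/+ and 459, 828 and 824 in Sykdel/del (log2 fold change 0.54, SE 0.09, adjusted p = 0.016 by limma without that library). *Osm*, the cytokine oncostatin M, was at 47.7, 115 and 70.1 and at 43.2, 201 and 180 (1.37, SE 0.27, adjusted p = 0.047), and *Cd14*, the co-receptor for lipopolysaccharide, at 117, 134 and 92.3 and at 76.5, 213 and 212 (0.91, SE 0.16, adjusted p = 0.023). With all 6 libraries the adjusted p of each was 1.00.

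Others of the 12 were not low in that library. *Nlrp3*, the inflammasome sensor, was at 642, 721 and 710 in Syk+/+ and 735, 996 and 964 in Sykdel/del, so that all 3 Sykdel/del libraries were above all Syk+/+ libraries, and *Thbs1*, the matrix protein thrombospondin, was at 258, 238 and 262 and at 371, 773 and 460. Neither passed the test with all libraries (adjusted p = 0.45 and 0.054).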
